A study of Mus musculus with 6 samples.

Results

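The genes examined were 32 genes of cholesterol and fatty acid synthesis, picked by symbol for their roles from 24421 gene symbols in the count table. All 32 were found, and all 32 were among the 15988 genes that passed the filter on low counts. They comprised 8 enzymes from acetyl-CoA to squalene, 10 enzymes from squalene to cholesterol, 4 regulators or sterol carriers, 8 enzymes of fatty acid synthesis and desaturation, and 2 sterol efflux transporters. RNA was sequenced from cochlear explants of wild-type (WT) mice at postnatal day 2, in 3 control samples and 3 samples damaged with neomycin, an aminoglycoside antibiotic that kills hair cells (HCs). Each sample was a pool of 6 to 8 cochleae, from which the stria vascularis anlage, the modiolus and the tectorial membrane had been removed before culture. By the protocol, culture lasted 12 h before damage, exposure to neomycin at 1 mM lasted 6 h, and the explants then stayed 5 more days in medium with EdU at 10 μM, a thymidine analogue taken up by dividing cells. The labels carry this protocol for all 6 samples, and the controls were taken as free of neomycin from their treatment label. No source used here says how the pools of the 2 groups relate to litters or days, so p-values measure the spread between these pools.

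Cells make cholesterol from acetyl-CoA by way of mevalonate, squalene and lanosterol, and make fatty acids from the same precursor through malonyl-CoA. The transcription factor SREBP2, encoded by Srebf2, drives most genes of the sterol route when the endoplasmic reticulum is short of cholesterol, and SREBP1, encoded by Srebf1, acts mainly on fatty acid genes. INSIG proteins hold both precursors in the endoplasmic reticulum when sterol is plentiful, while the LXR receptors, bound by oxysterols, raise the efflux transporters. In the cochlea, cholesterol in the outer HC membrane is known to affect its stiffness and the motor protein prestin.

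Most of these genes differed little between neomycin and control. At an adjusted p under 0.05 in edgeR's quasi-likelihood test, 10 of the 32 genes differed between neomycin and control (31.2%), beside 29.0% of all genes tested. Of the 10 genes, 8 were lower, beside 16.1% of all genes tested, and 2 were higher, beside 12.9%. With a change over 1.5-fold also required, 2 genes were lower and 0 higher, beside 6.60% and 2.24% of all genes tested. The 2 genes were Hsd17b7, which encodes a sterol ketone reductase and fell 4.94-fold, and Stard4, which encodes a cholesterol carrier and fell 1.88-fold. The median log2 fold change over the 32 genes was -0.06, beside -0.004 over all genes tested. Estimates below 0 were found for 23 of the 32 genes, beside 8074 of the 15988 genes tested. The values of the 3 control and 3 neomycin samples did not overlap for 4 genes that were higher and 10 that were lower. Beside these stood 21.0% of all genes tested without overlap and higher, 22.5% without overlap and lower, and 43.5% in both directions.

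**Figure D1:**
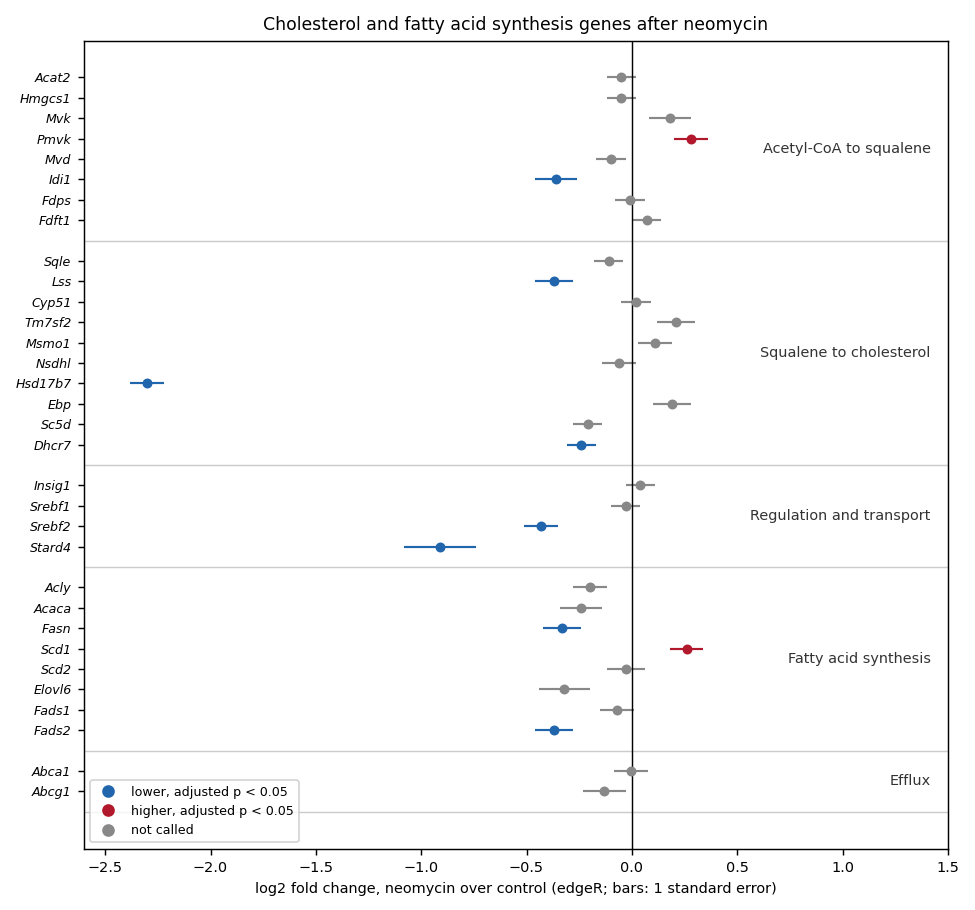
Log2 fold change of neomycin over control (horizontal axis) for each of the 32 genes, grouped by role, with bars of 1 standard error from edgeR. Hsd17b7 lies at -2.30 and Stard4 at -0.91, and the other 30 genes lie between -0.43 and 0.28.

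For the 22 genes that did not pass the test, the log2 fold changes lay between -0.32 and 0.21. The 95% confidence intervals of all 22 stayed within a 1.5-fold change in either direction, from a lowest bound of -0.57 to a highest bound of 0.40 on the log2 scale. Depth was ample, with 290 to 94163 reads for any of the 32 genes in any sample and library totals of 50471116 to 66068108 reads. Together the 32 genes took 0.396% to 0.432% of the reads in the controls and 0.350% to 0.404% after neomycin, and these ranges overlapped.

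HC markers, which the labelled tissue should hold, were present in the controls and low after neomycin. Of 17 HC markers, 16 were lower at an adjusted p under 0.05 in edgeR, 0 were higher, and their summed level went from 909 to 1040 CPM (counts scaled to a common library size with TMM factors) in the controls to 297 to 364 CPM after neomycin. In bulk samples, fewer cells of a type and less RNA per cell cannot be told apart. Summed macrophage markers ranged from 109 to 143 CPM in the controls and from 159 to 200 CPM after neomycin, with 7 of 12 higher and 0 lower. Supporting cell (SC) markers summed to 2710 to 3110 CPM and 3460 to 3570 CPM, with 3 of 12 higher and 4 lower. S100a1 alone took 1390 to 1800 CPM and 2050 to 2290 CPM of these sums, and the other 11 markers summed to 1300 to 1320 CPM and 1280 to 1460 CPM. Schwann cell markers, of interest because myelin-forming cells use much of this pathway, summed to 546 to 598 CPM in the controls and 512 to 537 CPM after neomycin, with 2 of 9 lower and 0 higher. Most of these sums was Sox10, at 330 to 370 CPM in the controls and 345 to 349 CPM after neomycin. Neuronal markers summed to 197 to 277 CPM and 182 to 201 CPM, with 1 of 8 higher and 4 lower. Endothelial markers summed to 282 to 315 CPM and 267 to 318 CPM, with 6 of 8 lower. Emcn alone held 238 to 259 CPM and 245 to 298 CPM of these sums, and the other 7 markers summed to 44.0 to 55.9 CPM in the controls and 19.5 to 21.9 CPM after neomycin. Mesenchymal markers summed to 5880 to 6420 CPM and 6300 to 6510 CPM, with 2 of 8 higher and 2 lower. Of the adipocyte list only Fabp4 passed the filter, falling from 20.4 CPM by 2.97 on the log2 scale, and the defining markers Plin1 and Pck1 were at 0. Beside the counts of markers stood 12.9% of all genes tested that were higher and 16.1% that were lower. These marker lists moved with the same contrast as the results that follow, and their part in those results was not tested.

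Hsd17b7 showed by far the largest change of the 32 genes. Its enzyme reduces the ketone left on the sterol ring after each carbon is taken from position C4, between lanosterol and cholesterol, and can also reduce estrone to estradiol. The gene lies on the minus strand of chromosome 1 at chr1:169949535-169969241 (mm10). Its level was 103, 113 and 109 CPM in the controls and 23.1, 22.9 and 19.8 CPM after neomycin. All 3 neomycin samples were close to one another and far below every control, with a log2 fold change of -2.30 ± 0.08 (SE, n = 3 per group, edgeR adjusted p = 9.4e-09). This p-value was the smallest among all 15988 genes in this fit and ranked from 1 to 6 under the other settings, at 2 in DESeq2 and at 6 without neomycin 1. In the same fit, a lower log2 fold change was found for 91 genes (0.569%). Of the 17 HC markers, 6 fell further than Hsd17b7 and 11 fell less. Falls of this size were not limited to HC markers. The 8 endothelial markers had log2 fold changes from -3.40 to 0.12, with a median of -1.94, and Fabp4 was at -2.97. Whether the level of Hsd17b7 moved with the number of HCs or of any other cell type was not tested.

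Of the other members of this enzymatic step, Msmo1 and Nsdhl did not pass the test. Msmo1 encodes the oxidase that starts C4 demethylation. Its level was 81.9, 85.6 and 95.1 CPM in the controls and 91.2, 98.7 and 92.8 CPM after neomycin (log2 fold change 0.11, edgeR adjusted p = 0.312). Nsdhl encodes the dehydrogenase that removes the carbon and precedes the reductase. It measured 41.6, 35.8 and 41.2 CPM in the controls and 40.5, 36.5 and 36.7 CPM after neomycin (log2 fold change -0.06, edgeR adjusted p = 0.608), and both genes overlapped between the groups. Erg28, listed under the older symbol 0610007P14Rik and encoding a scaffold of this complex, is not among the 32 genes and was singled out after its values were seen. It rose from 43.9, 43.9 and 47.1 CPM to 53.1, 57.0 and 58.3 CPM, with no overlap (log2 fold change 0.32 ± 0.07 SE, edgeR adjusted p = 0.00656).

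**Figure D2:**
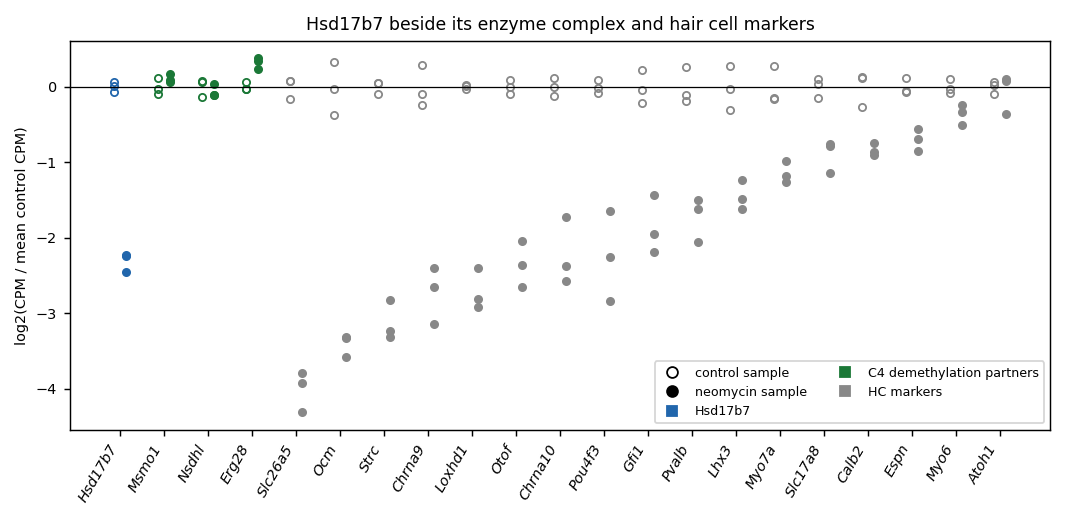
Level of Hsd17b7, of 3 other genes of C4 demethylation and of 17 HC markers in each sample, as log2 of CPM over the control mean (vertical axis), with open points for control and filled points for neomycin. The 3 neomycin samples of Hsd17b7 lie among the HC markers, while those of Msmo1 and Nsdhl lie near 0 and those of Erg28 lie above every control. Markers of other cell types are not drawn.

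The bases upstream of Hsd17b7 are shown with those of Srebf2, which fell less, and of Hmgcs1, a classical SREBP2 target that did not pass the test. Each run is the 250 bases before the RefSeq transcript start (GRCm38.p6, the mm10 assembly), 5′ to 3′ on the strand of the gene. Capitals mark TCACNCCA, the core of a sterol regulatory element bound by SREBPs, and CCAAT, bound by NF-Y, on either strand. The windows are chr1:169969206-169969455 on the minus strand for Hsd17b7, chr15:82147019-82147268 on the plus strand for Srebf2, and chr13:119690101-119690350 on the plus strand for Hmgcs1.
Hsd17b7: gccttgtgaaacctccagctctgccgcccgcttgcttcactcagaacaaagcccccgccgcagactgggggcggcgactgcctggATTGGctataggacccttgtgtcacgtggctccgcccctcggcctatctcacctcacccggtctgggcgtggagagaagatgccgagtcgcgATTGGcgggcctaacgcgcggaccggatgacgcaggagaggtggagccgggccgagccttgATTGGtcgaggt
Srebf2: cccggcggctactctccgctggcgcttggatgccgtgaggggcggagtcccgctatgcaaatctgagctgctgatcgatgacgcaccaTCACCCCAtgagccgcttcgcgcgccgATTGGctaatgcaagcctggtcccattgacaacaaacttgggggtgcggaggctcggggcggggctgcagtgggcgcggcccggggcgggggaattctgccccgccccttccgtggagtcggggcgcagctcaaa
Hmgcs1: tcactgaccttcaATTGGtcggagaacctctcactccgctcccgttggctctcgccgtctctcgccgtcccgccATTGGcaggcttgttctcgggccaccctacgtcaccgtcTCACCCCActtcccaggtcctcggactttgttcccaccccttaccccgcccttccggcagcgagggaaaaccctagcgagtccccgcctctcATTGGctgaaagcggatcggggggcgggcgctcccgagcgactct
The Hsd17b7 window held CCAAT on the opposite strand at 165, 73 and 12 bases before the RefSeq start, and TCACNCCA was not found in it. GENCODE, the source of the gene coordinates given here, places the starts of Hsd17b7 and Srebf2 inside these windows, at 169969241 and 82147181. By GENCODE, the Hsd17b7 match at 12 bases lies within the gene. Srebf2 held TCACCCCA at 162 bases and 1 reverse CCAAT at 135 bases before the start. Hmgcs1 held TCACCCCA at 137 bases and 3 reverse CCAAT, at 237, 176 and 45 bases. These matches describe letters in the windows. Neither binding nor a link between the letters and the changes of the 3 genes was tested.

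RefSeq windows were matched for 24 of the 32 genes, all but Fdps, Fdft1, Sqle, Stard4, Scd1, Scd2, Fads1 and Abcg1. TCACNCCA was found in 3 of the 24 genes (12.5%), namely Hmgcs1, Msmo1 and Srebf2, beside 4.2% of 27025 genes with a window of the same length. CCAAT was found in 18 of the 24 genes (75.0%), beside 37.5% of the 27025 genes, and GGGCGG, bound by SP1, in 20 (83.3%), beside 35.4%. The 27025 genes were not limited to those that passed the filter on low counts, while all of the 24 passed it. Shares among tested genes alone were not taken, so an excess over the 27025 genes cannot be assigned to this pathway. The E-box CACGTG was found in 5 of the 24 (20.8%), Hsd17b7 and Dhcr7 among them, beside 6.86% of the 27025 genes. The LXR response element, searched only as exact AGGTCA repeated after a spacer of 4 bases, was found in 0 of the 24. It was found in 4 of the 27025 genes (0.0148%), so this search cannot show whether the 24 genes hold such an element in another form. All motifs were searched on both strands. The gene 3110045C21Rik starts within the Hsd17b7 window and runs the other way. It measured 2.36, 3.24 and 2.78 CPM in the controls and 2.05, 1.81 and 2.03 CPM after neomycin, a log2 fold change of -0.50 that did not pass the test (edgeR adjusted p = 0.103).

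From acetyl-CoA to squalene, 1 of 8 enzymes was higher and 1 lower, beside 12.9% and 16.1% of all genes tested, and the median log2 fold change was -0.03. Pmvk, which encodes phosphomevalonate kinase, measured 37.6, 35.2 and 40.7 CPM in the controls and 45.4, 47.0 and 45.5 CPM after neomycin. Every neomycin sample lay above every control (log2 fold change 0.28 ± 0.08 SE, edgeR adjusted p = 0.0161). With the trend on transcript length in each sample removed, the value for Pmvk was 0.02 (adjusted p = 0.900). Idi1, encoding the isomerase that makes dimethylallyl diphosphate, measured 20.2, 18.4 and 18.3 CPM in the controls and 14.7, 15.8 and 13.9 CPM after neomycin. All neomycin samples were lower than all controls (log2 fold change -0.36 ± 0.10 SE, edgeR adjusted p = 0.0152). Exons of Idi1, taken over all its transcripts, overlap those of Gm48574 on the opposite strand by 323 bases. The strand setting of the counting is not given in the sources used here, so reads in these bases cannot be assigned to one gene. Hmgcs1, Fdft1, Lss, Cyp51 and Srebf1 also share between 109 and 774 exon bases with a gene on the opposite strand, and exons of Fdps and Tm7sf2 overlap a gene on the same strand.

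The remaining 6 enzymes of this stretch did not pass the test. They were Acat2, whose thiolase makes acetoacetyl-CoA (log2 fold change -0.05), Hmgcs1, encoding HMG-CoA synthase (-0.05), the mevalonate kinase gene Mvk (0.18), the decarboxylase gene Mvd (-0.10), the farnesyl diphosphate synthase gene Fdps (-0.01) and the squalene synthase gene Fdft1 (0.07). Hmgcs1 measured 124, 135 and 122 CPM in the controls and 129, 118 and 122 CPM after neomycin, with overlapping groups. With the length trend removed, Mvd and Fdps passed the test, at -0.26 (edgeR adjusted p = 0.0153) and -0.24 (adjusted p = 0.0166).

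From squalene to cholesterol, 3 of 10 enzymes were lower and 0 higher, beside 16.1% and 12.9% of all genes tested, and the median log2 fold change was -0.08. The summed level of the 10 enzymes was 526, 535 and 539 CPM in the controls and 449, 435 and 427 CPM after neomycin. Of the difference in means, -96.4 CPM, Hsd17b7 accounted for -86.6 CPM and the other 9 enzymes for -9.88 CPM. Without Hsd17b7 the log2 fold changes ranged from -0.37 to 0.21, with a median of -0.06.

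Lss, encoding lanosterol synthase, measured 27.5, 27.0 and 26.1 CPM in the controls and 22.8, 21.4 and 18.4 CPM after neomycin. The groups did not overlap (log2 fold change -0.37 ± 0.09 SE, edgeR adjusted p = 0.0133), and the call was lost with the length trend removed (-0.24, adjusted p = 0.0596). Dhcr7, encoding the reductase that ends the route to cholesterol, measured 38.1, 35.9 and 35.8 CPM in the controls and 30.9, 31.1 and 30.8 CPM after neomycin. All neomycin samples were lower (log2 fold change -0.24 ± 0.07 SE, edgeR adjusted p = 0.0272). Leaving out 1 library at a time, the Dhcr7 call was lost without control 1 (0.0967), control 2 (0.0673), neomycin 1 (0.0561), neomycin 2 (0.0898) or neomycin 3 (0.0845), as adjusted p.

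Among the sterol enzymes that did not pass the test, 3 had groups that did not overlap. Over all 10 sterol enzymes, called or not, 2 were higher without overlap and 4 lower. Beside these stood 21.0% and 22.5% of all genes tested, called or not. Sc5d, encoding the sterol desaturase before Dhcr7, measured 34.3, 35.8 and 35.6 CPM in the controls and 30.4, 31.2 and 29.7 CPM after neomycin (log2 fold change -0.21, edgeR adjusted p = 0.0502). Sc5d was called lower with library totals (adjusted p = 0.0183) and with a filter of at least 1 CPM in 3 samples (0.043). Tm7sf2, encoding a sterol reductase, went the other way, from 23.5, 24.1 and 23.0 CPM to 29.3, 25.4 and 27.3 CPM (log2 fold change 0.21, edgeR adjusted p = 0.0767). Ebp, encoding the sterol isomerase, measured 19.0, 19.1 and 20.4 CPM and 23.1, 21.1 and 22.9 CPM (log2 fold change 0.19, edgeR adjusted p = 0.111). The squalene epoxidase gene Sqle, at -0.11, and the lanosterol demethylase gene Cyp51, at 0.02, had overlapping groups.

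Among the regulators and carriers, 2 of 4 genes were lower and 0 higher, beside 16.1% and 12.9% of all genes tested. Srebf2, at chr15:82147181-82205379 on the plus strand (mm10), measured 175, 154 and 162 CPM in the controls and 130, 118 and 117 CPM after neomycin. Every neomycin sample was below every control (log2 fold change -0.43 ± 0.08 SE, edgeR adjusted p = 0.00196). With the length trend removed, Srebf2 was at -0.27 (adjusted p = 0.00944). Stard4, which encodes a soluble protein that carries cholesterol between membranes and is itself a known SREBP2 target, had the lowest counts of the 32 genes. It measured 15.6, 14 and 12.4 CPM in the controls and 9.21, 7.75 and 5.40 CPM after neomycin. The groups did not overlap, although the spread was wide (log2 fold change -0.91 ± 0.17 SE, edgeR adjusted p = 0.0025). Srebf1 measured 182, 165 and 173 CPM in the controls and 177, 163 and 168 CPM after neomycin (log2 fold change -0.03, edgeR adjusted p = 0.772). Insig1, encoding the retention protein of the SREBPs, measured 67.2, 68.6 and 68.3 CPM and 73.1, 63.9 and 73.2 CPM (log2 fold change 0.04, edgeR adjusted p = 0.695). The groups of these last 2 genes overlapped.

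**Figure D3:**
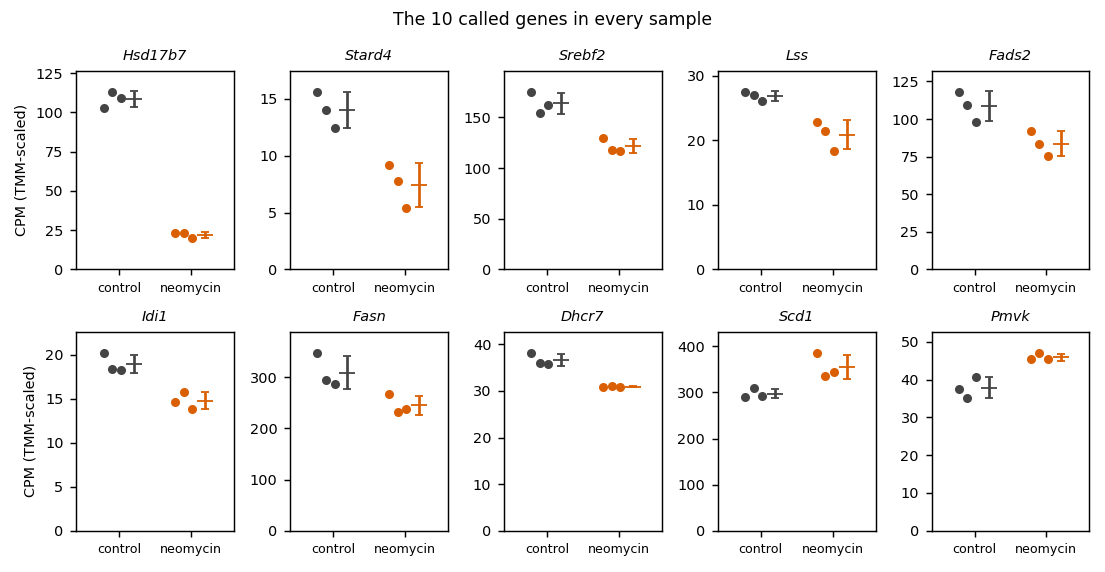
CPM scaled by TMM factors (vertical axes, from 0) of the 10 genes that passed the test, in each control and neomycin sample, with the mean and 1 SD beside the points (n = 3 per group). The groups do not overlap in any of the 10 panels, and the neomycin samples of Scd1 and Pmvk are above the controls.

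In fatty acid synthesis, 1 of 8 genes was higher and 2 were lower, beside 12.9% and 16.1% of all genes tested, with a median log2 fold change of -0.22. Fasn, encoding fatty acid synthase, at chr11:120805846-120824547 on the minus strand, measured 347, 295 and 286 CPM in the controls and 267, 232 and 238 CPM after neomycin. All neomycin samples were lower (log2 fold change -0.33 ± 0.09 SE, edgeR adjusted p = 0.0183), but with the length trend removed the value was -0.03 (adjusted p = 0.798). Fads2, encoding the desaturase at the start of polyunsaturated fatty acid synthesis, at chr19:10062765-10101746 on the minus strand, measured 118, 109 and 98.3 CPM and 92.2, 83.3 and 75.5 CPM. Its groups did not overlap (log2 fold change -0.37 ± 0.09 SE, edgeR adjusted p = 0.00936). Fads1, its neighbour in the pathway, did not pass the test (-0.07, edgeR adjusted p = 0.55).

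Scd1, encoding a stearoyl-CoA desaturase that makes monounsaturated fatty acids, was the gene of this group that rose. It measured 291, 309 and 292 CPM in the controls and 385, 336 and 345 CPM after neomycin, with no overlap (log2 fold change 0.26 ± 0.08 SE, edgeR adjusted p = 0.0303). Scaled by library totals without TMM factors, the call was lost (0.19, edgeR adjusted p = 0.103), and with the length trend removed the value was 0.40 (adjusted p = 0.00102). Its paralog Scd2 measured 1360, 1380 and 1380 CPM and 1470, 1310 and 1250 CPM, with overlapping groups (log2 fold change -0.03, edgeR adjusted p = 0.818). The Scd genes are similar in sequence and the handling of reads matching several places is not given in the sources used here, so the split of reads between them is uncertain.

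The 3 genes upstream or beside these did not pass the test. Acly, encoding the enzyme that makes cytosolic acetyl-CoA from citrate, measured 232, 215 and 200 CPM and 198, 187 and 179 CPM, with no overlap (log2 fold change -0.20, edgeR adjusted p = 0.0754). Acaca, encoding acetyl-CoA carboxylase, had a log2 fold change of -0.24 (edgeR adjusted p = 0.0949), and the elongase gene Elovl6 one of -0.32 (adjusted p = 0.0558). Both overlapped between the groups. Without control 3, Acly, Acaca and Elovl6 were called lower (edgeR adjusted p = 0.0312, 0.0148 and 0.00442). Elovl6 was also called lower by DESeq2 (adjusted p = 0.0389), with no filter on low counts (0.0348) and with library totals (0.0421), and with the length trend removed its log2 fold change was -0.11 (edgeR adjusted p = 0.461).

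Neither of the 2 LXR-driven efflux transporters passed the test. Abca1, which loads cholesterol onto apolipoproteins, measured 85.9, 85.1 and 76.0 CPM in the controls and 80.6, 78.5 and 87.5 CPM after neomycin (log2 fold change -0.00263, edgeR adjusted p = 0.984). With the length trend removed it was called higher (0.30, adjusted p = 0.00777). Abcg1, which exports sterol to lipoprotein particles, measured 28.0, 29.9 and 29.7 CPM and 30.3, 25.4 and 24.4 CPM (log2 fold change -0.13, edgeR adjusted p = 0.332). The groups overlapped for both transporters.

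The mean change of each set was also taken in each sample, as log2(CPM + 1) minus the control mean. It lay between -0.02 and 0.01 in the neomycin samples for the enzymes up to squalene. For the enzymes from squalene it was -0.22, -0.28 and -0.31, and without Hsd17b7 it lay between -0.08 and 0. For the regulators and carriers it was -0.18, -0.35 and -0.41, and for fatty acid synthesis -0.06, -0.18 and -0.24. The control samples themselves ranged from -0.12 to 0.10 in the fatty acid set, so neomycin 1 lay inside the spread of the controls there.

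Levels were compared between genes as CPM per kilobase of transcript. Scd2 had the highest control level, 252 ± 1.62 (SD, n = 3), followed by Scd1 at 61.5 ± 2.08, and both stood apart from the gene next below. From Fads1, at 49.4 ± 3.86, down to Sqle, at 29.9 ± 0.901, each gene overlapped with its neighbour in the order. Hsd17b7, at 23.5 ± 1.06 in the controls, was at rank 16 of 32 and overlapped with Mvd above it but not with Fdft1 below it. After neomycin its mean was 4.76, near the control levels of Acaca, 5.29 ± 0.774, and Abcg1, 5.01 ± 0.176. Stard4 was the lowest, at 2.74 ± 0.314 in the controls and 1.46 after neomycin.

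**Figure D4:**
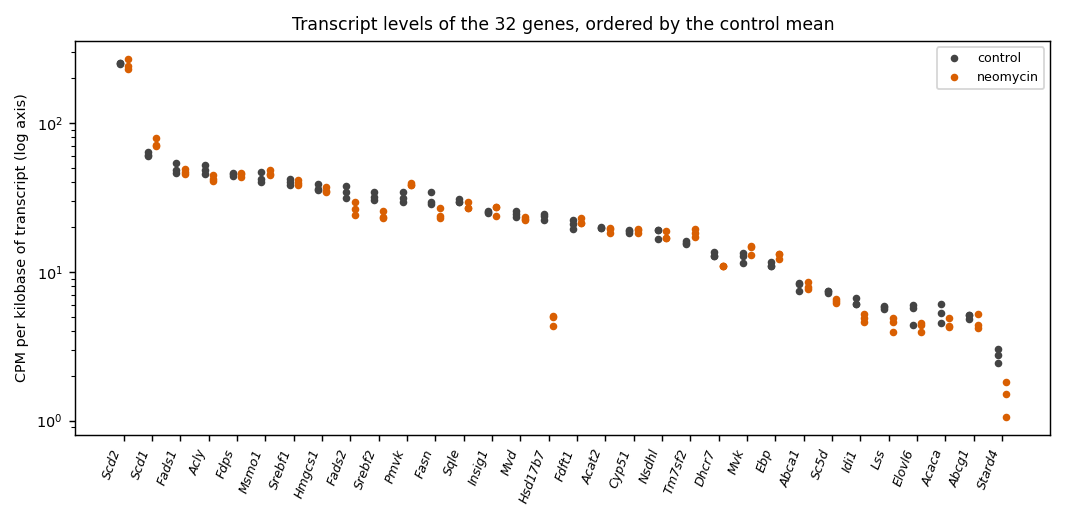
CPM per kilobase of transcript (vertical log axis) of the 32 genes in each sample, ordered by the control mean. The levels run from Scd2 at 252 to Stard4 at 2.74 in the controls, and the neomycin samples of Hsd17b7 lie furthest from their controls, at 4.76 against 23.5.

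Other genes of lipid metabolism were listed by role. Of 61 tested, 8 were higher and 11 lower (31.1%, beside 29.0% of all genes tested). In SREBP processing, 1 of 6 was lower and 0 higher (16.7%, beside 29.0% of all genes tested). It was Scap, encoding the sterol-sensing escort of the SREBPs, which went from 54.6 ± 4.39 to 45.4 ± 3.25 CPM (SD, n = 3; log2 fold change -0.27, edgeR adjusted p = 0.0295).

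Of 25 other fatty acid genes, 4 were higher and 3 lower (28.0%, beside 29.0% of all genes tested). Acss2, encoding the enzyme that makes acetyl-CoA from acetate and a known SREBP target, fell from 34.0 ± 1.60 to 20.5 ± 1.77 CPM (SD, n = 3; log2 fold change -0.73 ± 0.09 SE, edgeR adjusted p = 1.66e-04). The acyl-CoA synthetase genes Acsl6 and Acsl4 fell by 0.64 and 0.46 on the log2 scale (edgeR adjusted p = 0.0437 and 0.00478). Acsl3 and Acsl5 of the same family, named after their values were seen, went the other way, at 0.44 and 0.25 (edgeR adjusted p = 0.00319 and 0.0182). Among 11 genes of the isoprenoid branches, 1 was higher and 2 lower (27.3%, beside 29.0% of all genes tested). These were Pggt1b, encoding a subunit of a geranylgeranyl transferase (-0.46, edgeR adjusted p = 0.0416), Ggps1, encoding geranylgeranyl diphosphate synthase (-0.24, adjusted p = 0.0386), and Fnta, encoding the shared subunit of the prenyltransferases (0.38, adjusted p = 0.00342).

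Of 19 genes that carry, store or oxidise sterols and lipids, 3 were higher and 5 lower (42.1%, beside 29.0% of all genes tested). Cyp27a1, encoding a mitochondrial sterol hydroxylase, was higher by 0.84 ± 0.22 SE on the log2 scale (edgeR adjusted p = 0.0138). Osbp, encoding an oxysterol-binding protein, and Lpin1, encoding a phosphatidate phosphatase, were lower at -0.32 (adjusted p = 0.00392) and -0.31 (adjusted p = 0.0434). The values for each list share the same 6 samples, and no test of a list as a set was made.

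The calls that held under all 16 other settings of tool, scaling, filter, covariate and left-out library were those of Hsd17b7, Stard4, Srebf2 and Fads2, all lower. Idi1 lost its call without control 1 (edgeR adjusted p = 0.0599) or neomycin 3 (0.0642), Lss without control 2 (0.0505) or neomycin 3 (0.0639), and Pmvk without control 2 (0.0791) or neomycin 2 (0.0785). Fasn lost its call without control 1 (0.0754), neomycin 2 (0.101) or neomycin 3 (0.0689). Scd1 lost its call without control 1 (0.0686), control 2 (0.0621), neomycin 1 (0.106), neomycin 2 (0.0614) or neomycin 3 (0.0631).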

How the data were processed

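Cochlear explants of 3 control and 3 neomycin pools were profiled by mRNA sequencing. Per the labels and the study's methods, the authors called bases with CASAVA 1.8, trimmed with Trimmomatic 0.23, aligned to mm10 with HISAT2 and counted with HTSeq. The deposited values are raw counts, 1 integer for each symbol and sample. DESeq2 is also named there for the study's own testing. Coordinates and transcript lengths came from GENCODE vM21 and promoters from RefSeq, both on GRCm38, and length was found for 15862 of the 15988 genes tested (99.2%). The members and lists were chosen with earlier results of these data known.

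Genes with enough counts (filterByExpr) were kept, scaled by TMM and tested with edgeR 4.0.16 (R 4.3.3) by its quasi-likelihood test, neomycin against control, with Benjamini-Hochberg adjustment over 15988 genes. The standard error is the size of the log2 fold change over the square root of F. A gene was called at adjusted p under 0.05, and a second rule added a fold over 1.5. All 32 members are named. Of the other pathway lists at most 3 genes past the threshold with the largest fold are named, and Acsl3 and Acsl5 besides. Marker lists are given by counts and summed CPM. The length trend was a lowess fit (span 0.3) made in each sample and entered in the model as an offset. It was fitted to log2 CPM minus the mean of the gene over all samples, on log2 transcript length, the longest coding transcript. Library totals of 50471116 to 66068108 reads limit precision little, beside the spread of 3 pools. DESeq2 1.42.0, limma-voom (limma 3.58.1), other scalings and filters, a replicate block and left-out libraries were alternatives. The procedure was tested on simulated data. Figures were drawn with matplotlib 3.10.9.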

Additional observations from a re-analysis of the deposited data

How the results depend on the processing

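Over 512 pairs of a member and another setting, 439 kept direction and side of the threshold, 25 lost a call, 18 gained one with the sign kept, and 30 changed sign. None of the 30 was of a gene called as reported, and 2 of them, Abca1 with the length trend removed without and with the block, were called higher. Members higher, 2 as reported, were 1 with library totals, 0 at adjusted p under 0.01 and 0 to 2 with 1 library left out, and 0 without control 2 or without neomycin 2. Members lower, 8 as reported, were 4 at adjusted p under 0.01 and 4 to 11 with 1 library left out, with 4 without neomycin 3 and 5 without control 1. All genes higher, 2058 as reported, were 1349 with library totals, 1338 with the length trend removed and 1007 to 2578 with 1 library left out. All genes lower, 2571 as reported, were 1505 to 2763 with 1 library left out. Library totals moved the median of all genes by -0.07 on the log2 scale, and there Sc5d, Acly and Elovl6 were also called lower. The cause of these changes was not tested.

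The log2 fold changes that changed sign were, with the length trend removed, Msmo1 -0.01, Srebf1 0.07, Acaca 0.06, Scd2 0.14, Abca1 0.30 and Abcg1 0.07, with the same values when the block was added. With library totals they were Fdft1 -0.00144, Cyp51 -0.05 and Insig1 -0.03. With upper quartile scaling Fdps was 0.01 and Abca1 0.02, and Abca1 was 0.00361 in DESeq2 and 0.00363 with its size factors in edgeR. With 1 library left out, Hmgcs1 ran from -0.08 to 0.0036, Srebf1 from -0.06 to 0.01, Scd2 from -0.10 to 0.02, Fads1 from -0.10 to 0.00287 and Abca1 up to 0.04, with 0.03 and 0.01 among its values. Fdps was 0.02 without control 3 and 0.01 without neomycin 2, and Cyp51 was -0.00195 without neomycin 1.

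The replicate numbers appear in both groups. Deviations of same-numbered samples correlated at 0.165, 0.0264 and 0.0949 across genes, so not every pair passed 0.1 and the samples were taken to share only a number. Each neomycin sample correlated best with the control of its number, while control 2 correlated best with neomycin 3 (0.0325). With the replicate block, 3 members were higher and 12 lower, with calls gained for Tm7sf2 (edgeR adjusted p = 0.0486), Sc5d (0.026), Acly (0.0149), Acaca (0.0191) and Elovl6 (0.00954). Calls over all genes also rose with the block, to 2785 higher and 3229 lower, from 2058 and 2571 as reported. With the block and the length trend removed, 2 members were higher and 9 lower, beside 1659 and 2075 of all genes.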
